A study of Mus musculus with 12 samples.

Results

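The 9 genes described here encode the central activation steps of complement, C3, C4b, C2 and Cfb, and the regulators that act on them or on what they release, C4bp, Cfi, Serping1, Vtn and Clu. They were chosen by name, with earlier results of these data known. Every array probe whose transcript accession mapped to 1 of these symbols was taken, which gave 11 probes (20 spots) for 9 of the 33269 genes or unnamed probes on the array. C2 and C3 each had 2 probes and the other members 1. All 9 members passed the filter on dim probes, and their probes were well above background on all 12 arrays, with no saturated spot.

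The samples were whole livers of C57BL/6 mice, 12 arrays in 4 groups, and in each pair below the group on 0.1% Wy-14643, fed for 2 days, is set against its control diet. Wy-14643 is an agonist of the nuclear receptor PPARA and a peroxisome proliferator in rodent liver. MycF/F,ERT2-Cre mice carry loxP-flanked Myc alleles and a Cre recombinase fused to a modified estrogen receptor, which tamoxifen activates; their labels read knockout, and there were 4 arrays on Wy-14643 and 4 on control diet. MycF/F mice carry the flanked alleles without Cre and are labelled wild type; there were 3 arrays on Wy-14643 and 1 on control diet, whose RNA is labelled as pooled liver. The sources used here do not state tamoxifen dosing, the promoter that drives Cre, sex or age. The labels do not say whether the replicates were separate animals, so the p-values measure only the spread between these samples, which may be technical.

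Complement is a set of plasma proteins, most of them made by hepatocytes, that cut each other in sequence on a target surface. The classical and lectin pathways cut C4 and C2 to form an enzyme that cleaves C3, and the alternative pathway forms a second such enzyme from C3 and factor B. Soluble regulators take these enzymes apart, destroy their subunits, block the first proteases or hold the terminal complex in solution. Several of these genes are also acute-phase genes, driven in liver by interleukin 6, interleukin 1 and interferon signalling through STAT, C/EBP and NF-kappa-B factors.

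Each value below is the log2 ratio of sample RNA (Cy5) to a pooled liver reference (Cy3), so 0 is the level of the reference pool, and levels are compared for 1 gene between arrays and never between genes. The share of spots well above background was 64.6% to 77.1% per array. Spots that the scanner software marked as outliers were left out, which removed 21 of 132 values of the member probes, 17 of them on slide 1, 2 on slide 2 and 2 on slide 3; 6 of the 9 members therefore lack a value on at least 1 array. Slide 1 held 1 MycF/F,ERT2-Cre Wy-14643 array, 2 MycF/F,ERT2-Cre control arrays and 1 MycF/F Wy-14643 array. All 8 measured hepatocyte markers, among them Alb, Apoa1 and Ttr, were well above background on all 12 arrays. On 2 of the 3 Myc probes the log2 ratio was -1.37 to -0.22 on the 8 MycF/F,ERT2-Cre arrays, against 0.20 to 0.90 on the 4 MycF/F arrays. On these 2 probes every array sat on the side of its label. The remaining Myc probe, the brightest, overlapped over both diets together, at -0.07 to 0.72 on MycF/F,ERT2-Cre arrays and 0.51 to 0.62 on MycF/F arrays. On Wy-14643 its values did not overlap, at -0.01, 0.05 and -0.07 on MycF/F,ERT2-Cre arrays and 0.62 and 0.51 on MycF/F arrays. By that probe, which stands for the gene in the fit, Myc did not pass between the genotypes on Wy-14643 (log2 fold change -0.57, limma adjusted p = 0.283). On control diet the fold change was -0.19. No source used here says where the probes lie relative to the flanked exons.

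RefSeq promoters (GRCm38.p6, 250 bases before to 50 after the annotated start) were at hand for 3 of the 9 members, C4bp, Vtn and C3. All 3 are shown. C4bp and Vtn had 2 of the larger falls given below and C3 a smaller difference. Capitals mark matches, on either strand, to 6 motifs.
C4bp, chr1:130661569-130661868, minus strand: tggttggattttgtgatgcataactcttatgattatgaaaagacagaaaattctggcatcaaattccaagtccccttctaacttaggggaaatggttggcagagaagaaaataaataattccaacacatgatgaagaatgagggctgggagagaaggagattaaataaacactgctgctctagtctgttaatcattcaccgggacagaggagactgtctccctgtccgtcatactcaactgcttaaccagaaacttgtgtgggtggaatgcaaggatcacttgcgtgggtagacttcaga
Vtn, chr11:78498870-78499169, plus strand: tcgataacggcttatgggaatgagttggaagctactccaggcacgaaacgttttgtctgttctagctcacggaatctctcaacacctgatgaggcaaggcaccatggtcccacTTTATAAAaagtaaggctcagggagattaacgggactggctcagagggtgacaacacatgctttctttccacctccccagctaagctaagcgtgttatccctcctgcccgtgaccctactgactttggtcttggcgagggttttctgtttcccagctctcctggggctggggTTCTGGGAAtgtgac
C3, chr17:57228087-57228386, minus strand: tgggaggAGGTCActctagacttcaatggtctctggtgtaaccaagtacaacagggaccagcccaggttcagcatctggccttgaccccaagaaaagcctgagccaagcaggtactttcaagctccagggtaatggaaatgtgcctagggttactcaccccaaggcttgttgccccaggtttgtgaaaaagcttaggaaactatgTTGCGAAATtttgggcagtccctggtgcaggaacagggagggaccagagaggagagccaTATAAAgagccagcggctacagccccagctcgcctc
The nuclear receptor half-site AGGTCA stood in the C3 window from position -243, counted from the annotated start, and in 16.3% of 32851 mouse promoters of the same length. The C/EBP motif TTGCNNAAT stood in the C3 window from position -45 and in 2.4% of those promoters. The STAT motif TTCNNNGAA stood in the Vtn window from position 35 and in 8.3% of promoters. The TATA box TATAAA stood in the C3 window from position 14, in the Vtn window on both strands in overlapping matches from -137 and -135, and in 13.6% of promoters. The E-box CACGTG of MYC and MAX (7.15% of promoters) and the HNF4 motif CAAAGTCCA (0.475% of promoters) stood in none of the 3 windows, and the C4bp window held none of the 6 motifs. A match says only that these letters stand in the window.

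The first comparison asks what Wy-14643 did to these genes in MycF/F,ERT2-Cre livers, where both diets have 4 arrays. All 9 log2 fold changes lay below 0 and 7 of the 9 fell: C4bp, Vtn, C2, Cfi, C4b, Cfb and Serping1, to between 0.36 and 0.67 of their control-diet level. These were 3 of the 4 activation genes and 4 of the 5 regulators. None rose, and C3 and Clu did not pass the test. With the arrays also scaled to each other 5 members passed, and with the Cy5 signal alone 4. Of all 25162 genes tested with limma, 7.34% fell at an adjusted p under 0.05, and the median log2 fold change was -1.07 over the members and 0.03 over all genes. The members were chosen with earlier results of these data known, so this contrast only describes them. In whole liver, fewer cells of a type and less RNA per cell cannot be told apart.

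Among the activation genes, C2, the serine protease that joins C4b in the classical and lectin C3-cleaving enzyme, had log2 ratios of -0.42, -0.59, -0.44 and -0.57 on Wy-14643, against 0.54, 0.78, 0.67 and 0.95 on control diet. The diets did not overlap, and the gap between them was wider than the range within either. C2 was 2.36-fold lower (log2 fold change -1.24, SE 0.093, limma adjusted p = 2.76e-06), and its second probe gave -1.12. C4b, the gene of complement C4, whose fragment anchors that enzyme to a surface, had -0.0016, -0.70, -0.51 and -0.59 on Wy-14643, against 0.80, 0.33 and 0.72 on the 3 control arrays with a value. The diets did not overlap, although the Wy-14643 array on slide 1 stood above the other three. C4b was 2.09-fold lower (log2 fold change -1.07, SE 0.16, limma adjusted p = 0.00103). A near-identical copy, C4a, which the RefSeq table lists as a transcribed pseudogene, also fell (log2 fold change -0.78, limma adjusted p = 0.0148), with overlapping values, and cross-hybridization between the copies was not tested.

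Cfb, factor B, the protease of the alternative-pathway enzyme, had -0.26, -0.34 and -0.28 on 3 Wy-14643 arrays, against 0.56 and 0.35 on 2 control arrays. The values in the fit did not overlap, and all those on slide 1 had been flagged. Cfb was 1.68-fold lower (log2 fold change -0.74, SE 0.11, limma adjusted p = 0.00194). With the flagged spots kept, the slide 1 values were 0.76 on Wy-14643, against 0.65 and 1.40 on control diet, the diets overlapped, and the fold change of -0.76 no longer passed (limma adjusted p = 0.0866). 

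C3, the protein that all 3 pathways converge on, had log2 ratios of 1.00, 0.26, 0.04 and 0.16 on Wy-14643, against 0.69, 1.18, 0.92 and 0.65 on control diet. The first Wy-14643 array, on slide 1, lay inside the control range and the other three below it. The fold change was -0.50 (SE 0.19, 95% interval -0.91 to -0.08, limma adjusted p = 0.103). Without that array the fold change of C3 was -0.71 (limma adjusted p = 0.00391), and without the 4 arrays of slide 1 the fold change was -0.63 (limma adjusted p = 0.0031). With all arrays kept and slide as a fixed block, C3 did not pass (fold change -0.38, limma adjusted p = 0.1). Nor did it with the replicate number as a block (fold change -0.50, limma adjusted p = 0.0825). The second C3 probe, a single spot against 10 spots of the first, read -0.19, -0.23, -0.45 and -0.32 on Wy-14643, against -1.21, -0.23, 0.19 and 0.08 on control diet. Its fold change of -0.01 did not pass either, and there the control array at -1.21, on slide 1, stood below the rest. The 2 probes disagree.

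Among the regulators, C4bp, the C4b-binding protein that breaks up the classical enzyme, had -0.74 and -0.33 on the 2 Wy-14643 arrays with a value, against 0.90, 0.94 and 0.99 on 3 control arrays. The diets lay more than 1 log2 unit apart. C4bp was 2.78-fold lower (log2 fold change -1.47, SE 0.13, limma adjusted p = 0.000174), and the fold change was -1.53 with flagged values kept on all 8 arrays. Vtn, vitronectin, an adhesive plasma protein that also binds the terminal complex, had -0.19, -0.36, -0.31 and -0.36 on Wy-14643, against 0.89, 1.11, 0.95 and 0.85 on control diet. Within each diet its values spanned less than 0.3 log2 units, and the diets did not overlap. Vtn was 2.39-fold lower (log2 fold change -1.26, SE 0.080, limma adjusted p = 1.79e-06). With the arrays also scaled to each other neither gene passed (fold change -2.02 for C4bp and -1.72 for Vtn, limma adjusted p = 0.0724 and 0.0647), and with the Cy5 signal alone Vtn was at -0.68 (limma adjusted p = 0.0824).

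Cfi, factor I, the protease that cuts C3b and C4b with the help of cofactors such as C4bp, had -0.38, -0.45, -0.50 and -0.43 on Wy-14643, against 0.57, 0.87, 0.75 and 0.66 on control diet. It had the tightest Wy-14643 group of the members measured on all arrays, without overlap. Cfi was 2.22-fold lower (log2 fold change -1.15, SE 0.077, limma adjusted p = 1.37e-06; 0.0607 with the Cy5 signal alone). Serping1, the C1 inhibitor, which blocks the first proteases of the classical and lectin pathways as well as the contact system, had -0.31, -0.37 and -0.22 on Wy-14643, against 0.28 on the only control array with a value. Its log2 fold change was -0.58 (SE 0.14, limma adjusted p = 0.0285), a call that rests on that control array. Without MycF/F,ERT2-Cre Wy-14643 array 2, 3 or 4, or without MycF/F Wy-14643 array 2, which enters the shared spread, the limma adjusted p was 0.0502 to 0.0744. With flagged spots kept, its 4 control values were -0.12, 0.36, 0.19 and 0.27, all above the Wy-14643 values, of which the highest was -0.22, and the fold change was -0.50 (limma adjusted p = 0.00447). The call was also lost with no background correction, with an offset of 16, with the deposited log ratio and with the Cy5 signal alone (limma adjusted p = 0.0626, 0.11, 0.139 and 0.182).

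Clu, clusterin, a secreted chaperone that holds the terminal complex in solution, differed least between the diets. It had 0.09, 0.06 and 0.13 on Wy-14643, against 0.19 and 0.31 on control diet. The fold change was -0.16 (95% interval -0.38 to 0.07, limma adjusted p = 0.354). That interval holds 0 and leaves out the estimates of the 7 called members, but overlaps the interval of Serping1 (-0.91 to -0.26). Whether Clu differs from the called members was not tested. With flagged spots kept the fold change of Clu was -0.0083, and the diets overlapped. Counted over all members, 8 of 9, all but C3, were lower without overlap in the values of the fit, where 10.1% of all genes were. With flagged spots kept Clu and Cfb overlapped as well. Groups with fewer values separate more easily, and 6 of the 9 members lacked a value, against 4238 of 25260 genes or unnamed probes.

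**Figure D1:**
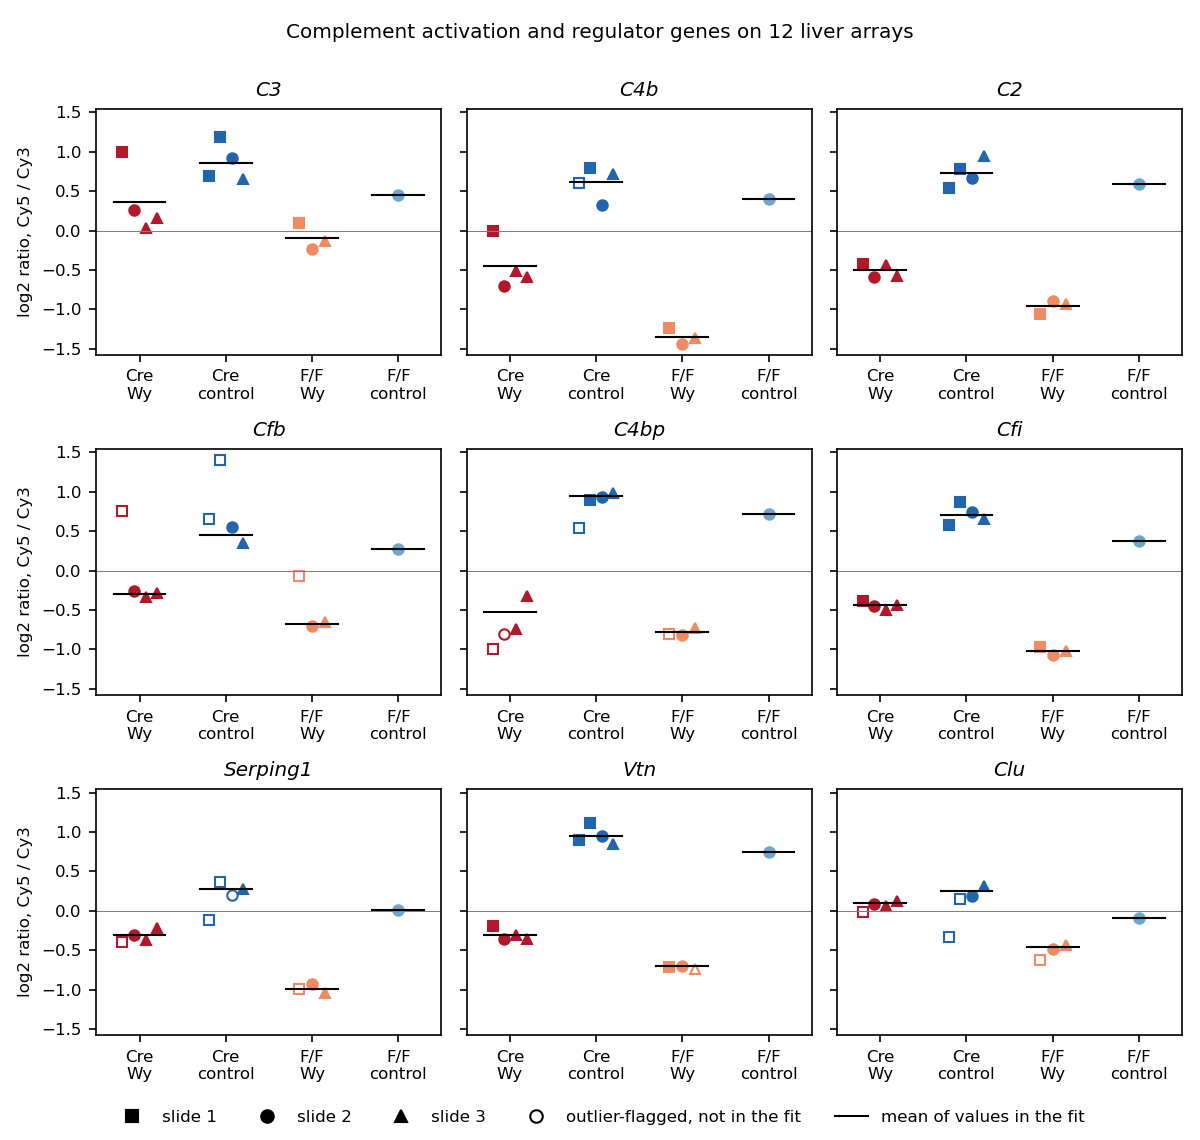
Log2 ratio of sample to reference RNA (vertical axis) of the 9 genes on each array, by group (Cre is MycF/F,ERT2-Cre, F/F is MycF/F, Wy is Wy-14643), with marker shape for the slide, open markers for outlier-flagged values that the fit leaves out (shown at their value with flagged spots kept) and bars for the mean of the values in the fit. In 8 of 9 genes the group means run, from highest to lowest, as Cre control, F/F control, Cre Wy and F/F Wy. Clu keeps the highest and lowest groups and swaps the middle ones.

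Within slides, the Wy-14643 arrays lay below the control arrays for 4 of 5 members with values on slide 1, for 7 of 7 on slide 2 and for 9 of 9 on slide 3; the exception was C3 on slide 1, at 0.058. With slide as a fixed block 7 members fell, as without it. Marker genes of other liver cells moved with the diet as well: the mean log2 ratio of 12 Kupffer cell and macrophage markers was -0.36 to -0.17 per array on Wy-14643, against 0.18 to 0.81 on control diet, with 8 of the 12 lower by the test. The mean of 8 hepatocyte markers was -0.22 to 0.13 on Wy-14643, against 0.44 to 0.83 on control diet, with 4 lower and 1 higher. For 9 endothelial markers it was -0.19 to -0.13 on Wy-14643, against 0.10 to 0.18 on control diet, with 3 lower, and for 9 stellate cell and fibroblast markers -0.36 to -0.07, against 0.21 to 0.25, with 4 lower. All markers of these 4 lists were well above background. Of 5 neutrophil markers none passed in limma (2 at an unadjusted p under 0.05), with means of -0.40 to 0.09 on Wy-14643, against -0.09 to 0.53 on control diet; of 6 cholangiocyte markers 1 was lower and 1 higher, with means of 0.01 to 0.13, against 0.14 to 0.20; and of 7 lymphocyte markers 2 were lower, with means of -0.13 to -0.03, against 0.04 to 0.26. The part of such shifts in the complement values was not tested.

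In MycF/F livers the Wy-14643 comparison sets 3 arrays against a single pooled control array, which is assumed to vary like the other groups. The same count held: 7 of 9 members fell, namely C4b, C2, C4bp, Vtn, Cfi, Serping1 and Cfb, while 3.19% of 24912 genes fell by the test. The median log2 fold change was -1.39 over the members and -0.0029 over all genes. C3 and Clu were again the members that did not pass. With the arrays also scaled to each other 2 members passed, and with the Cy5 signal alone none did. The mean of the Kupffer cell and macrophage markers was -0.67 to -0.44 per array on Wy-14643, against 0.17 on the control array. For the hepatocyte markers it was -0.16 to -0.04, against 0.34, and for the endothelial markers -0.44 to -0.21, against -0.0089. For the stellate cell and fibroblast markers it was -0.28 to -0.05, against 0.03. The part of such shifts in these values was not tested.

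C4b showed the largest of these falls. It had -1.24, -1.44 and -1.37 on Wy-14643, against 0.40 on the control array, which is 3.36-fold lower (log2 fold change -1.75, SE 0.25, limma adjusted p = 0.00155). C2 had -1.06, -0.90 and -0.94, against 0.59, and was 2.94-fold lower (limma adjusted p = 9.07e-05). Cfi had -0.97, -1.07 and -1.01, against 0.38, and was 2.62-fold lower (limma adjusted p = 5.29e-05). All 3 Wy-14643 arrays of each gene stood far below the pooled control.

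Vtn had -0.71 and -0.70 on 2 arrays, against 0.74, a fold change of -1.45 on the log2 scale (limma adjusted p = 0.00012). C4bp had -0.82 and -0.73, against 0.72, a fold change of -1.49 (limma adjusted p = 0.00195). Serping1 had -0.93 and -1.04, against 0.0045, a fold change of -0.99 (limma adjusted p = 0.0082, and 0.0784 with the replicate number as a block). In each of these 3 regulators the Wy-14643 arrays differed by about 0.1 log2 units or less.

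Cfb had -0.70 and -0.65 on Wy-14643, against 0.27, a fold change of -0.94 (limma adjusted p = 0.00601); with flagged spots kept the array on slide 1 read -0.06 and the adjusted p was 0.52. C3 had 0.09, -0.23 and -0.14, against 0.45, a fold change of -0.54 (95% interval -1.22 to 0.14, limma adjusted p = 0.444). Clu had -0.48 and -0.44, against -0.09, a fold change of -0.36 (95% interval -0.67 to -0.06, limma adjusted p = 0.189). Both genes lay below the control array in every value, and neither passed over all genes. Without the arrays of slide 1, C3 passed here too (fold change -0.63, limma adjusted p = 0.0227).

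**Figure D2:**
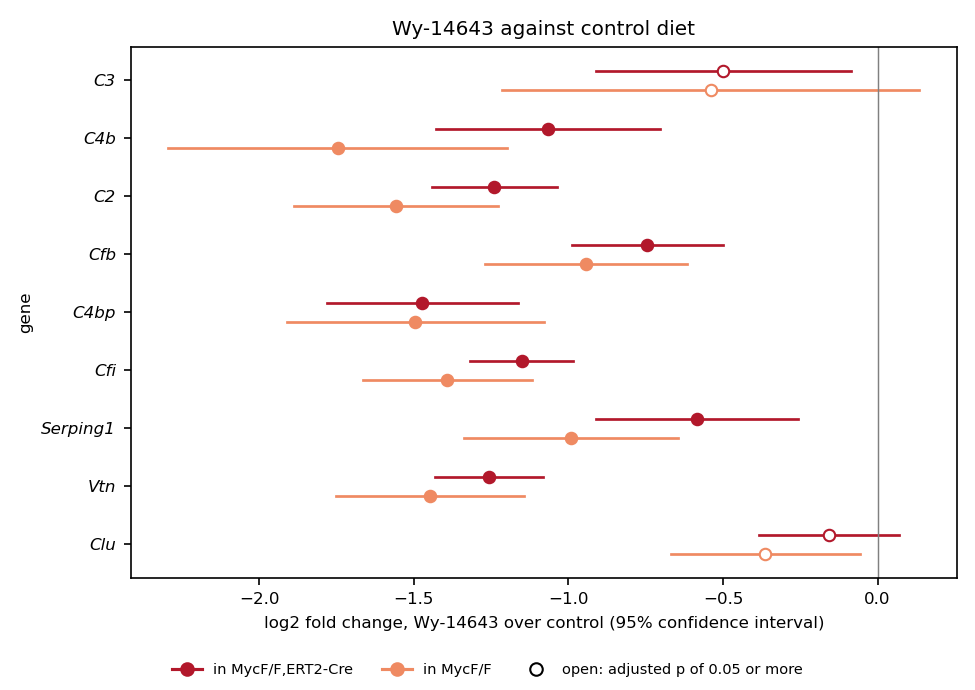
Log2 fold change of Wy-14643 over control diet (horizontal axis) with its 95% confidence interval for the 9 genes, in MycF/F,ERT2-Cre livers (up to 4 against 4 arrays with a value, upper mark) and in MycF/F livers (up to 3 against 1, lower mark), filled where limma's adjusted p is under 0.05. All 18 estimates lie below 0, 7 genes are filled in both genotypes, and C3 and Clu are open in both.

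Whether the fall differed by genotype was tested as the difference of the 2 diet effects. No member passed, and 0% of 24874 genes were called by limma; at an unadjusted p under 0.05 there were 538 genes, C4b among them. All 9 differences lay above 0, between 0.02 and 0.68, so each estimated fall was smaller in MycF/F,ERT2-Cre livers. The difference was 0.68 for C4b (95% interval 0.02 to 1.34), 0.41 for Serping1 (-0.07 to 0.88), 0.32 for C2 (-0.07 to 0.70) and 0.04 for C3 (-0.75 to 0.83). These estimates share the lone MycF/F control array, and several turn below 0 under other scalings, as given in the closing section.

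The direct comparison of genotypes on Wy-14643 sets 4 MycF/F,ERT2-Cre arrays against 3 MycF/F arrays. All 9 estimates lay above 0, though that of C4bp was -0.10 with the Cy5 signal alone, and 1 member, Cfi, passed the test, higher in MycF/F,ERT2-Cre livers; over all genes only 4 of 25169 rose, which is 0.0159%. Cfi had -0.38, -0.45, -0.50 and -0.43 in MycF/F,ERT2-Cre livers, against -0.97, -1.07 and -1.01 in MycF/F livers. The genotypes did not overlap, and the fold change was 0.58 (1.49-fold higher, SE 0.083, limma adjusted p = 0.0259). Within slides the difference was 0.58, 0.62 and 0.55 on slides 1, 2 and 3.

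The Cfi call did not hold under every setting. Same-numbered Wy-14643 arrays of the 2 genotypes shared a slide, and their deviations correlated at 0.15 to 0.41. With the replicate number as a block the difference was again 0.58 but missed the threshold (limma adjusted p = 0.13). Leaving out any 1 of the 7 Wy-14643 arrays also ended the call, with fold changes of 0.55 to 0.60. With slide as a fixed block Cfi and C4b both passed (fold changes 0.58 and 0.90, limma adjusted p = 0.0354 and 0.0291).

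C4b had the largest difference: -0.0016, -0.70, -0.51 and -0.59 in MycF/F,ERT2-Cre livers, against -1.24, -1.44 and -1.37 in MycF/F livers, a fold change of 0.90 (SE 0.16, limma adjusted p = 0.0848). Its copy C4a gave 0.74. Serping1 had -0.31, -0.37 and -0.22, against -0.93 and -1.04, a fold change of 0.69 (limma adjusted p = 0.104). Neither gene's values overlapped between the genotypes.

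Clu, which did not pass between the diets, had 0.09, 0.06 and 0.13 there on Wy-14643, against -0.48 and -0.44 in MycF/F livers. The genotypes did not overlap, and the fold change of 0.55 did not pass (limma adjusted p = 0.116). C2 had -0.42, -0.59, -0.44 and -0.57, against -1.06, -0.90 and -0.94, a fold change of 0.46 (limma adjusted p = 0.122). The fold change was 0.40 for Vtn, 0.38 for Cfb, 0.46 for C3 and 0.24 for C4bp, with adjusted p-values of 0.177 to 0.796. Values of 7 of the 9 members did not overlap between the genotypes, C3 and C4bp being the exceptions, whereas 7.32% of all genes were higher in MycF/F,ERT2-Cre livers without overlap. With flagged spots kept Cfb overlapped as well (limma adjusted p = 0.865). Groups with fewer values separate more easily, and the fit held 3 against 2 values for Cfb, Clu and Serping1 and 4 against 2 for Vtn.

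Without the 4 arrays of slide 1, limma called 4 members higher in MycF/F,ERT2-Cre livers given Wy-14643: C4b at 0.80, Serping1 at 0.69, Cfi at 0.58 and Clu at 0.55, with adjusted p-values of 0.0306 to 0.0379. The same setting raised the calls over all genes to 108, against 17 with every array. Within slides, the members with values were higher in MycF/F,ERT2-Cre livers in 5 of 5 cases on slide 1, 8 of 8 on slide 2 and 8 of 8 on slide 3. Kupffer cell and macrophage markers had a mean of -0.36 to -0.17 per array in MycF/F,ERT2-Cre livers given Wy-14643, against -0.67 to -0.44 in MycF/F livers, with none of the 12 passing and 7 at an unadjusted p under 0.05 in limma. Endothelial markers had a mean of -0.19 to -0.13, against -0.44 to -0.21, with none of 9 passing and 5 at that level. The means of hepatocyte markers overlapped, at -0.22 to 0.13, against -0.16 to -0.04, with none of 7 passing and 1 at that level. Those of 9 stellate cell and fibroblast markers overlapped too, at -0.36 to -0.07, against -0.28 to -0.05, with 0 passing and 0 at that level. The part of such shifts was not tested.

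On control diet, 4 MycF/F,ERT2-Cre arrays were set against the single pooled MycF/F array. No member passed and 0% of 24899 genes were called by limma, with 442 genes at an unadjusted p under 0.05. All 9 fold changes lay above 0, between 0.14 and 0.41. Cfi had 0.57, 0.87, 0.75 and 0.66 in MycF/F,ERT2-Cre livers, against 0.38 (fold change 0.33, 95% interval 0.07 to 0.60), and Clu had 0.19 and 0.31, against -0.09 (fold change 0.34, 0.04 to 0.65). Every MycF/F,ERT2-Cre value in the fit lay above the MycF/F array for these genes, whose own spread was not measured; with flagged spots kept, a MycF/F,ERT2-Cre array read -0.34 for Clu, against -0.11 in MycF/F.

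**Figure D3:**
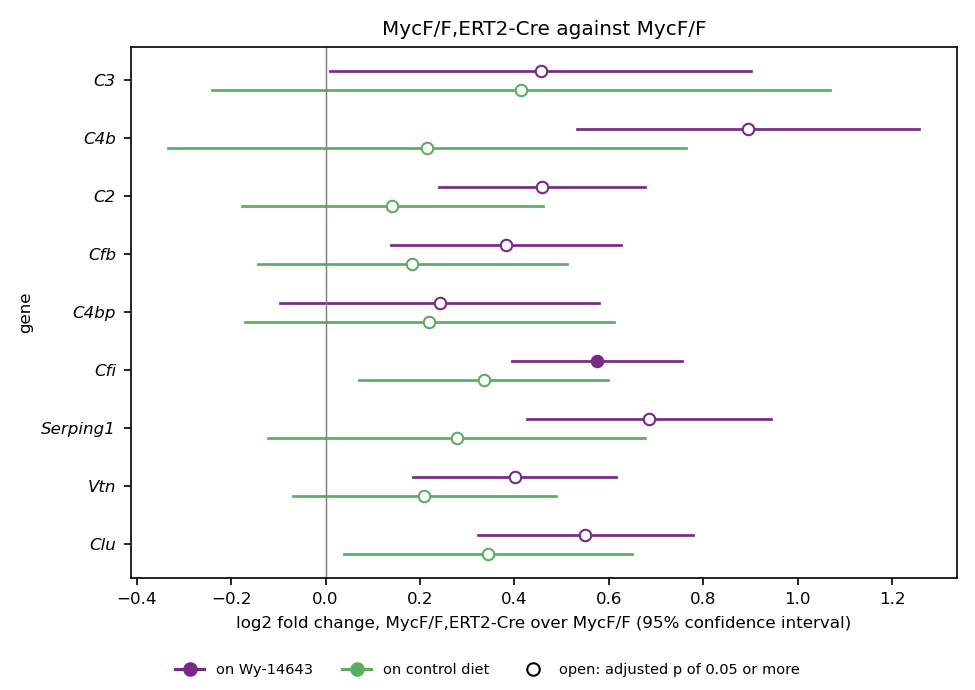
Log2 fold change of MycF/F,ERT2-Cre over MycF/F (horizontal axis) with its 95% confidence interval for the 9 genes, on Wy-14643 (up to 4 against 3 arrays with a value, upper mark) and on control diet (up to 4 against 1, lower mark), filled where limma's adjusted p is under 0.05. Every estimate lies above 0, and only Cfi on Wy-14643 is filled.

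Taking the 4 groups together, the mean levels of 8 of the 9 members ran from highest to lowest as control-diet MycF/F,ERT2-Cre, then MycF/F on control diet, MycF/F,ERT2-Cre on Wy-14643 and MycF/F on Wy-14643. Of the neighbours in that order, the 2 genotypes on control diet differed by the test for no member and the 2 genotypes on Wy-14643 for Cfi alone, and the middle pair, which differs in diet and genotype at once, was not tested. The comparisons share arrays, so their values are not independent of each other. Clu differed in its middle places, with MycF/F,ERT2-Cre on Wy-14643 at 0.09 and MycF/F on control diet at -0.09. The second C3 probe had the order of Clu, with these 2 groups at -0.30 and -0.57. For every gene the place of MycF/F on control diet rests on the single pooled array.

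The genes nearest in pattern were sought by Pearson's r over the arrays a member has, as a description with no test; the arrays fall into diet groups, which enter every such r. C2 was closest to Gpld1 (r = 0.996 over 12 arrays) and Serpina1c (r = 0.989). Cfi and Vtn shared their closest gene, 1300017J02Rik, at r = 0.993 over 12 and 11 arrays. C4b was closest to Itih4 (r = 0.983 over 11 arrays) and Ctsa (r = 0.978), and Ctsa was also second for Cfi (r = 0.990). C3 was closest to Erap1 (r = 0.948 over 12 arrays) and Fxyd5 (r = 0.928), both with smaller changes with Wy-14643 in MycF/F,ERT2-Cre livers than C3 had, at -0.27 and -0.35.

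Members with fewer arrays gave less certain neighbours. Cfb was closest to Ces1c and B2m (r = 0.994 for both, 8 arrays), C4bp to Rgs16 and Slc10a2 (r = 0.993 for both, 8 arrays), and Serping1 to Cuedc2 (r = 0.994) and Msn (r = 0.992) over 7 arrays. Clu was closest to Asxl1 (r = 0.994) and Cntfr (r = 0.98) over 8 arrays. Cuedc2, Asxl1 and Cntfr differed between the diets by -0.01, -0.04 and 0.06 in MycF/F,ERT2-Cre livers.

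In the genome, 3 of the activation genes lie close together. In GRCm38.p6, C4b is at chr17:34728139-34743902, its copy C4a at chr17:34809092-34823460, Cfb at chr17:34856374-34862514 and C2 at chr17:34862602-34882100. C3 lies elsewhere on the same chromosome, at chr17:57203967-57228136. The regulators are scattered: C4bp at chr1:130635921-130661657, Serping1 at chr2:84765360-84775444, Cfi at chr3:129836727-129875332, Vtn at chr11:78499120-78502325 and Clu at chr14:65968483-65981548. The diet effect in MycF/F,ERT2-Cre livers was -1.24 for C2, -0.74 for Cfb and -1.07 for C4b, in that cluster. On other chromosomes it was -1.47 for C4bp, -1.26 for Vtn, -1.15 for Cfi, -0.58 for Serping1 and -0.16 for Clu. For C3, outside the cluster on the same chromosome, it was -0.50.

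The rest of the complement system gives the context. Of 54 other complement symbols listed, 45 were on the array and 43 were tested in MycF/F,ERT2-Cre livers: 24 fell with Wy-14643, 3 rose and 16 did not pass, where 7.34% of all genes fell and 8.89% rose. Their median log2 fold change was -0.45, against -1.07 for the 9 members. By role the median was -1.38 for terminal genes, -1.07 for other soluble regulators, -0.70 for classical and -0.32 for lectin initiation. It was -0.43 for the alternative pathway, 0.11 for membrane regulators and -0.0020 for receptors. With the Cy5 signal alone the 27 calls were 9. In MycF/F livers 17 of 44 fell and none rose, where 3.19% of all genes fell, and over the other settings 5 to 25 were called. Between genotypes on Wy-14643, 1 of 45 passed, C8b, a subunit of the membrane attack complex, higher in MycF/F,ERT2-Cre livers by 0.97 (limma adjusted p = 0.0259). With slide as a fixed block, or the replicate number as a block, none of the 45 passed.

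By role, all 5 terminal genes tested fell, with log2 fold changes of -2.53 for C9, the pore-forming subunit, -2.03 for C8b and -1.38 for C8g. In the lectin pathway 5 of 9 fell, led by Mbl2, a mannose-binding lectin, at -3.16, with the proteases Masp1 at -1.27 and Masp2 at -0.48. In classical initiation 7 of 8 fell, led by C1ra, a C1r protease, at -1.41, with Crp at -0.88; 3 of the 7, C1qa, C1qb and C1qc, are also in the Kupffer cell and macrophage marker list, of which 8 of 12 fell, and the part of those cells was not tested. Cfp, properdin, which steadies the alternative enzyme, fell (-0.88, 2 arrays against 1, with the spread taken from the other groups, and -0.47 with flagged spots kept), and Cfd did not pass.

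The 3 genes called higher were Cpn1, Cd46 and Cr1l. Cpn1, a subunit of the carboxypeptidase that inactivates C3a and C5a, had a log2 fold change of 0.70 (limma adjusted p = 0.0114, 3 arrays against 1, with the spread taken from the other groups), and 0.34 with flagged spots kept, which did not pass (limma adjusted p = 0.43). Of 8 membrane regulators, Cd59a and Cd59b fell (-0.45 and -0.42), Cd46 and Cr1l rose (0.34 each), and 4 did not pass. Of 7 receptors only Itgb2 passed, lower at -0.44. Cpn1 and Cr1l were named after their values were seen, as the other genes called higher.

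**Figure D4:**
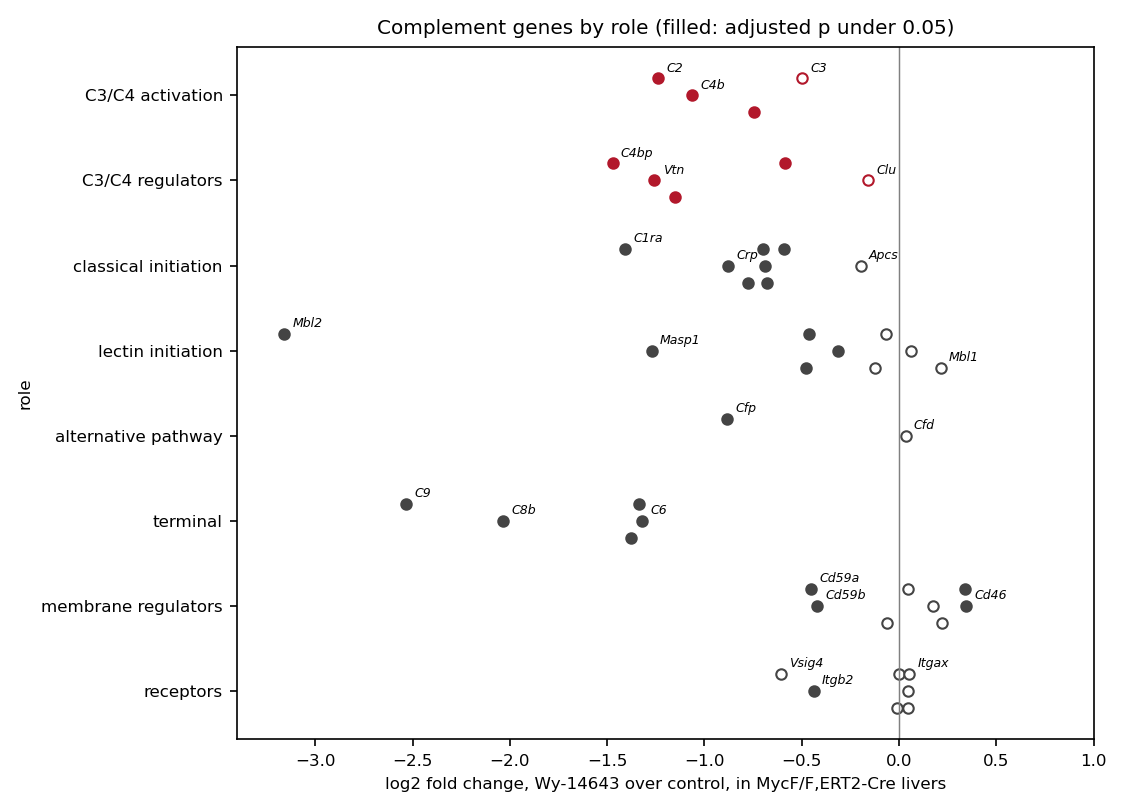
Log2 fold change of Wy-14643 over control diet in MycF/F,ERT2-Cre livers (horizontal axis, up to 4 against 4 arrays with a value) for complement genes in rows by role (soluble regulators other than the 9 genes are not drawn), the 9 described genes in red, filled where limma's adjusted p is under 0.05. All tested terminal genes lie left of 0 and the receptors between -0.61 and 0.05, with Mbl2 lowest at -3.16 and Cd46 highest at 0.34.

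Of 27 listed regulators of complement expression, 26 were tested, and in MycF/F,ERT2-Cre livers 8 fell with Wy-14643, none rose and 18 did not pass, where 7.34% of all genes fell and 8.89% rose. With the arrays also scaled to each other, or with the Cy5 signal alone, 5 were called. The log2 fold change was -1.23 for Il6ra, the interleukin 6 receptor, -0.95 for Stat3, its transcription factor, and -0.88 for Il1rap, the interleukin 1 co-receptor. It was -0.69 for Cebpa, a liver-enriched C/EBP factor, and -0.65 for Nr1h4, the bile acid receptor FXR. In MycF/F livers 4 passed, all lower, where 3.19% of all genes fell: Il6ra (fold change -1.54), Il1rap (-1.42), Cebpa (-1.31) and Stat3 (-1.17). Without MycF/F Wy-14643 array 3 that count was 2, and over the other settings it was 0 to 9. None of the 26 passed between the genotypes on Wy-14643, with 3 at an unadjusted p under 0.05 in limma.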

How the data were processed

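Per the labels' protocols, the authors extracted total RNA from whole liver, amplified antisense RNA and coupled it to Cy5, against pooled reference RNA in Cy3. The deposited intensity values, median spot signals and local backgrounds, came per the file headers out of Feature Extraction, an Agilent program, version 11.0.1.1. The deposited log10 ratio column, per the file headers the software's own corrected ratio, served only as an alternative. The array design names build mm8; transcript accessions were matched to RefSeq symbols (16792 of 17440 accessions beginning NM).

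Background was corrected with normexp (offset 50) and dyes with loess in limma 3.58.1 (R 4.3.3). Outlier-flagged and control spots were left out, spots of a probe averaged, probes kept if well above background on at least 3 of 12 arrays, and the brightest probe taken per gene, giving 25260 genes or unnamed probes. A mean per group was fitted over all 12 arrays (lmFit, eBayes), with two-sided tests, Benjamini-Hochberg adjustment over all genes and a threshold of 0.05. The group fit was run on simulated log ratios, with changes added only to genes with a value on all 12 arrays. Only the diet comparison in MycF/F,ERT2-Cre livers was checked there, and background correction and loess were not. The number of arrays limits the precision.

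The members, gene lists and tests were chosen with earlier results of these data known. Named are all members, up to 3 called genes with the largest change per complement role, up to 5 called regulators, and the 2 genes nearest each member; some genes that this rule names are not reported here. Replicate numbers were checked as pairs. Deviations of same-numbered MycF/F,ERT2-Cre and MycF/F Wy-14643 arrays correlated at 0.41, 0.16 and 0.15, and the own number matched best in 2 of 3 cases. Each pair shared a slide, so pairing by number cannot be told apart from slide. For the diets in MycF/F,ERT2-Cre livers the correlations were 0.32, -0.07, -0.01 and 0.12, the own number matched best in 1 of 4 cases, and no pairing by number is seen. Alternatives were no background correction, an offset of 16, the deposited log10 ratio, scaling between arrays, Cy5 alone with quantile normalization, other filters, probe rules, flagged spots kept, slide as a block, slide 1 left out, the replicate block and each array left out.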

Additional observations from a re-analysis of the deposited data

How the results depend on the processing

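Leaving out each array in turn left 6 to 8 members called for Wy-14643 in MycF/F,ERT2-Cre livers, 7 in MycF/F livers and 0 to 1 between genotypes on Wy-14643. Cy5 alone gave 4 members in MycF/F,ERT2-Cre livers and 0 in MycF/F livers, and scaling between arrays gave 2 in MycF/F livers; the cause was not tested. Between genotypes on Wy-14643, 0 members passed with no background correction, with offset 16, with the deposited log ratio, with scaling, with Cy5 alone and with the replicate block, 2 with slide as a fixed or a random block, 3 with flagged spots kept and 4 without slide 1. The replicate block changed no other count of members by over 1.5 times (7 for the diets in MycF/F,ERT2-Cre livers and 6 in MycF/F livers). The 9 members stayed below 0 in both diet comparisons except C3 within slide 1 (0.058), and Clu with the deposited log ratio in MycF/F,ERT2-Cre livers (0.00059) and with Cy5 alone in MycF/F livers (0.025); on Wy-14643, C4bp was lower in MycF/F,ERT2-Cre livers with Cy5 alone (-0.10).

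The difference of the diet effects turned below 0 for several members. With Cy5 alone it was -0.31 for C3, -0.15 for C2, -0.66 for C4bp, -0.00056 for Cfi, -0.49 for Serping1, -0.035 for Vtn and -0.043 for Clu. With scaling between arrays it was -0.58 for C3, -0.10 for C2, -0.63 for C4bp, -0.22 for Cfi and -0.37 for Vtn. It was -0.045 for Cfb and -0.036 for C4bp with flagged spots kept, -0.0012 for C3 without slide 1, and -0.13 for C3 and -0.24 for C4bp with the replicate block. Leaving out an array gave -0.17 to 0.15 for C3 and -0.18 to 0.23 for C4bp. Serping1's fall in MycF/F,ERT2-Cre livers missed the threshold in 4 of 11 settings that leave out an array (adjusted p 0.0257 to 0.0744).

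Over all genes, Wy-14643 calls numbered 1272 in MycF/F,ERT2-Cre livers with Cy5 alone, against 4084. In MycF/F livers they numbered 254 with Cy5 alone, 352 with scaling, 1049 with the deposited log ratio and 2815 without slide 1, against 1621. On Wy-14643 the genotypes gave 0 to 108 calls, against 17. Flagged spots on slide 1, 17 of 44 member values, limit C4bp, Cfb, Serping1 and Clu most.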
